A study of Arabidopsis thaliana with 18 samples.

Results

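IAGLU (AT4G15550) is the Arabidopsis thaliana gene for a glucosyltransferase that attaches glucose to the auxin indole-3-acetic acid (IAA). It was represented on the Affymetrix ATH1 array by 1 probe set of the 22746 kept, and this probe set had an intensity on 18 of 18 arrays. The gene lies on chromosome 4. IAGLU was chosen by its levels and contrasts on these same 18 arrays, all of which the choice used, so its own values are given as a description, with standard errors and ranks but no p-value.

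Auxin controls growth, and plants keep its active pool small by joining IAA to sugars or amino acids or by oxidising it. UDP-glucosyltransferases (UGTs) such as IAGLU and some of its relatives in group L of the plant UGT family make sugar esters, which can be cleaved again. The GH3 enzymes make amino acid conjugates. Enzymes of the UGT superfamily also glucosylate salicylic acid and foreign compounds such as herbicides, and safeners are compounds that raise such detoxifying enzymes and protect crops from herbicide injury.

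Rosette leaves of plants grown on soil for 4 weeks were compared in 6 groups of 3 biological samples. The genotypes were the salicylic acid synthesis mutant sid2-2, the mutant tga2tga3tga5tga6, named for TGA transcription factors that act in salicylic acid and detoxification responses, and wild type Col0. Plants of each genotype were sprayed with mefenpyr (5 mM) and isoxadifen (7.2 mM), or with a mock spray holding DMSO, the solvent of the safener stocks. The safener formulation also held an emulsifier. Not given in the sources used here are whether the mock spray held it, when after the spray leaves were taken, and the background of the mutants. Both mutants are whole-plant mutants, and the genes they lack were not analysed here. The values are the intensities deposited by the authors, in arbitrary units on a linear scale. Part of the table is blank, and no source used here says what a blank stands for. A gene without a value is therefore not shown to be silent. Levels are compared between groups within a probe set only.

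Arrays had 14627 to 16408 probe sets with an intensity, and arrays of 1 group correlated at r = 0.977 to 0.994 over probe sets. Wild type safener replicate 1 stood apart from its group, with the fewest listed probe sets (14627), and IAGLU values that rest on it are given below with and without it. So did sid2-2 mock replicate 3, with the lowest mean r with its group (0.978) and the most listed probe sets (16408). Without it the IAGLU safener response in sid2-2 was log2 1.95 and the difference of mock treated sid2-2 from mock treated wild type 0.82, and the response differences were -0.51 for sid2-2 against wild type and 0.97 for sid2-2 against tga2tga3tga5tga6. Of the leaf markers, 3 of 7 were named in the annotation, each with values (RCA, LHCB4.2 and LHCB4.3, which serve photosynthesis). Their summed intensity per array was 7926 to 8371 in safener treated and 8390 to 9379 in mock treated sid2-2, 7683 to 8706 and 8076 to 9759 in tga2tga3tga5tga6, and 5795 to 7478 and 8420 to 9009 in wild type, with wild type safener replicate 1 at 5795. Of these 3 markers, only LHCB4.2 was called in the wild type safener response, where it fell (log2 -0.73, SE 0.15, limma adjusted p = 0.00123). Of all probe sets tested there, 16.9% were called lower. In the responses of sid2-2 and tga2tga3tga5tga6, 0 of the 3 were called. Of all probe sets tested, 12.8% were called higher and 19.2% lower in sid2-2, and 8.59% and 9.74% in tga2tga3tga5tga6. Counts of so few markers cannot be told from such shares. Of root, guard cell and phloem markers 1 of 3 each was named in the annotation, with values, and of flower markers 0 of 4. The markers not named there could not be looked up, so they are not shown to be absent. PYK10, a root-enriched beta-glucosidase, fell in sid2-2 (log2 -0.88, adjusted p = 0.00078). SWEET11, a sucrose exporter of the phloem, fell in sid2-2 (log2 -0.66), tga2tga3tga5tga6 (-0.62) and wild type (-0.35), the last call being lost without wild type safener replicate 3 (adjusted p = 0.071). Markers also differed between genotypes. LHCB4.3 was higher in sid2-2 than in wild type under mock (752 ± 128 and 379.5 ± 88.2, log2 1.00, adjusted p = 0.00132) and under safener (781 ± 51.0 and 372 ± 26.4, log2 1.07, adjusted p = 0.00112). It was also higher in sid2-2 than in tga2tga3tga5tga6 under both sprays (log2 0.74 with mock, adjusted p = 0.0191, and 0.79 with safener, adjusted p = 0.00836). This mock call was lost in 4 of 14 alternative settings (adjusted p of up to 0.115). In each of these comparisons of sid2-2 with another genotype, the other 2 leaf markers were not called. Of all probe sets tested there, 5.68% to 16.7% were called higher and 4.09% to 7.38% lower. PYK10 was higher in mock treated sid2-2 (log2 0.54, adjusted p = 0.029) and in safener treated tga2tga3tga5tga6 (log2 0.61, adjusted p = 0.0229) than in wild type under the same spray, calls lost in 6 and 5 of 14 alternative settings. In safener treated sid2-2 it was lower than in safener treated tga2tga3tga5tga6 (log2 -0.66, adjusted p = 0.0125), a call lost in 2 of 14 alternative settings. The part of these shifts in the results was not tested, and in whole leaves less transcript per cell and fewer expressing cells cannot be told apart.

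IAGLU was high in safener treated sid2-2 and wild type leaves, at an intermediate level in mock treated leaves of the same genotypes, and lowest in tga2tga3tga5tga6, where only the safener treated leaves overlapped mock treated wild type. In sid2-2 the intensities were 577, 643 and 718 with safener, against 168, 166 and 145 with mock. In tga2tga3tga5tga6 they were 98.6, 78.0 and 72.1 with safener, against 43.7, 40.0 and 41.8 with mock. In wild type they were 368, 612 and 624 with safener, against 86.3, 91.2 and 106 with mock. Within every genotype all 3 safener arrays lay above all 3 mock arrays. The mean of safener treated sid2-2 was 646 ± 70.6 and that of mock treated sid2-2 159 ± 12.6 (SD, n = 3 in every group). Safener treated tga2tga3tga5tga6 averaged 82.9 ± 13.9 and mock treated tga2tga3tga5tga6 41.8 ± 1.87. Safener treated wild type averaged 535 ± 144 and mock treated wild type 94.7 ± 10.5. Replicates varied least in mock treated tga2tga3tga5tga6, with a coefficient of variation of 4.47%, and most in safener treated wild type, with 27.0%. The pooled SD within groups was 0.23 on the log2 scale, with group SDs from 0.06 in mock treated tga2tga3tga5tga6 to 0.43 in safener treated wild type. The SEs of log2 differences below rest on a spread shared by all groups. For differences from safener treated wild type they are smaller than the arrays compared would give alone, and for differences between mock groups larger.

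**Figure D1:**
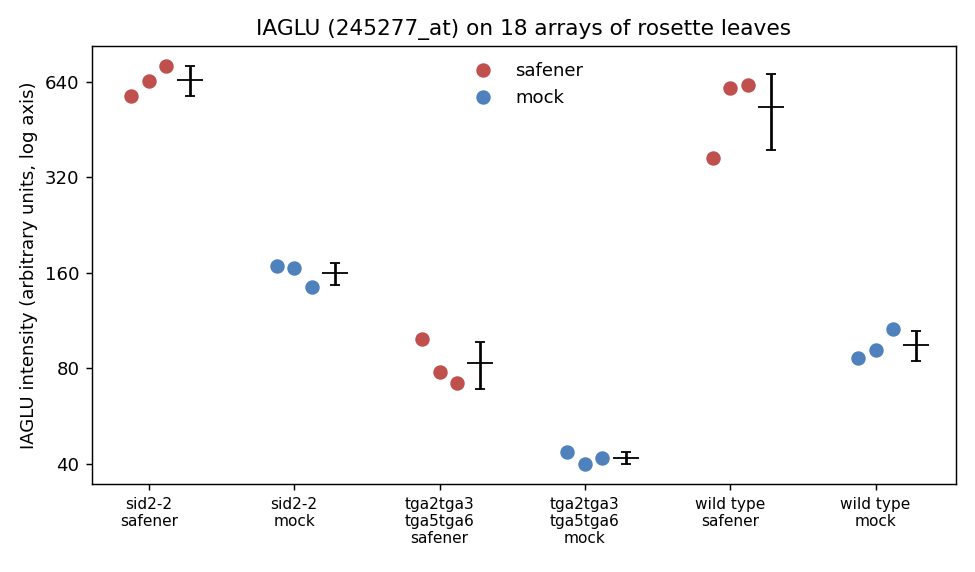
IAGLU intensity in arbitrary units (log axis) on each of the 18 arrays, with the mean and SD of the 3 arrays of a group drawn beside the points. Safener treated sid2-2 (577 to 718) and wild type (368 to 624) lie highest, and mock treated tga2tga3tga5tga6 (40.0 to 43.7) lies lowest.

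With safener, IAGLU was 4.05-fold its mock level in sid2-2 (log2 difference 2.02), 1.97-fold in tga2tga3tga5tga6 (0.97) and 5.51-fold in wild type (2.46), each with an SE of 0.17. The median of all probe sets tested was -0.09, -0.07 and -0.06 in the same order of genotypes. Ranked from the highest difference, IAGLU stood 58th of 15222 probe sets in sid2-2, 265th of 15195 in tga2tga3tga5tga6 and 23rd of 14704 in wild type. Safener arrays lay wholly above mock arrays for 15.5%, 17.4% and 20% of the probe sets tested in these genotypes, so the lack of overlap alone was common. On the linear scale the safener arrays exceeded the mock arrays by 487 units in sid2-2 (SE 41.4), by 41.1 in tga2tga3tga5tga6 (SE 8.12) and by 440 in wild type (SE 83.6). The increase in tga2tga3tga5tga6 was 9.34% of that in wild type, and the increase in sid2-2 was 111% of it. Without wild type safener replicate 1 these shares were 7.85% and 93.0%, so whether the linear increase of sid2-2 lay above or below that of wild type depended on this array.

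Without safener the genotypes already differed in opposite directions. Mock treated sid2-2 had 1.69-fold the IAGLU level of mock treated wild type (log2 0.75, SE 0.17), ranked 435th of 15002 from the highest difference. The leaf marker LHCB4.3 was higher in the same comparison, as given above, while the other 2 leaf markers were not called. All 3 leaf markers had an unadjusted limma p under 0.05 there, as had 35.3% of all probe sets tested. Mock treated tga2tga3tga5tga6 lay 2.26-fold below mock treated wild type (log2 -1.17, SE 0.17), the 37th lowest of 15018. The lowest sid2-2 array, at 145, was above the highest wild type array, at 106, and the highest tga2tga3tga5tga6 array, at 43.7, was below the lowest wild type array, at 86.3. Such a lack of overlap was seen for 26.9% of the probe sets in the higher direction in sid2-2, and for 8.3% in the lower direction in tga2tga3tga5tga6. Set against each other, mock treated sid2-2 had 3.80-fold the level of mock treated tga2tga3tga5tga6 (log2 1.93, SE 0.17, 28th highest of 15340), without overlap, as for 17.6% of probe sets in the higher direction.

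Under safener, the difference between tga2tga3tga5tga6 and wild type was wider than under mock and that between sid2-2 and wild type narrower. Safener treated tga2tga3tga5tga6 lay 6.33-fold below safener treated wild type (log2 -2.66, SE 0.17), the 17th lowest of 14859 probe sets. Its arrays did not overlap those of wild type, as for 13.2% of probe sets in the lower direction. Safener treated sid2-2 had 1.24-fold the level of safener treated wild type (log2 0.31, SE 0.17, 2392nd highest of 14900). Here the groups overlapped, the lowest sid2-2 array being at 577 and the highest wild type array at 624. Safener treated sid2-2 had 7.83-fold the level of safener treated tga2tga3tga5tga6 (log2 2.97, SE 0.17), the 14th highest of 15072, again without overlap, as for 21% of probe sets.

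The safener response itself, as the difference of the log2 differences, was 2.81-fold smaller in tga2tga3tga5tga6 than in wild type (log2 -1.49, SE 0.24). This was the 10th lowest value of 14556 probe sets, whose median was -0.02. Over all probe sets, 0.398% (58) passed the test for this difference (limma adjusted p under 0.05), and 26 did without wild type safener replicate 3. In sid2-2 the response was smaller than in wild type by 0.45 on the log2 scale (log2 -0.45, SE 0.24), the 665th lowest of 14524. The response of sid2-2 exceeded that of tga2tga3tga5tga6 by a log2 difference of 1.04 (SE 0.24), the 37th highest of 14810. These 3 values share arrays with one another and with the responses above, so they are not separate evidence.

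**Figure D2:**
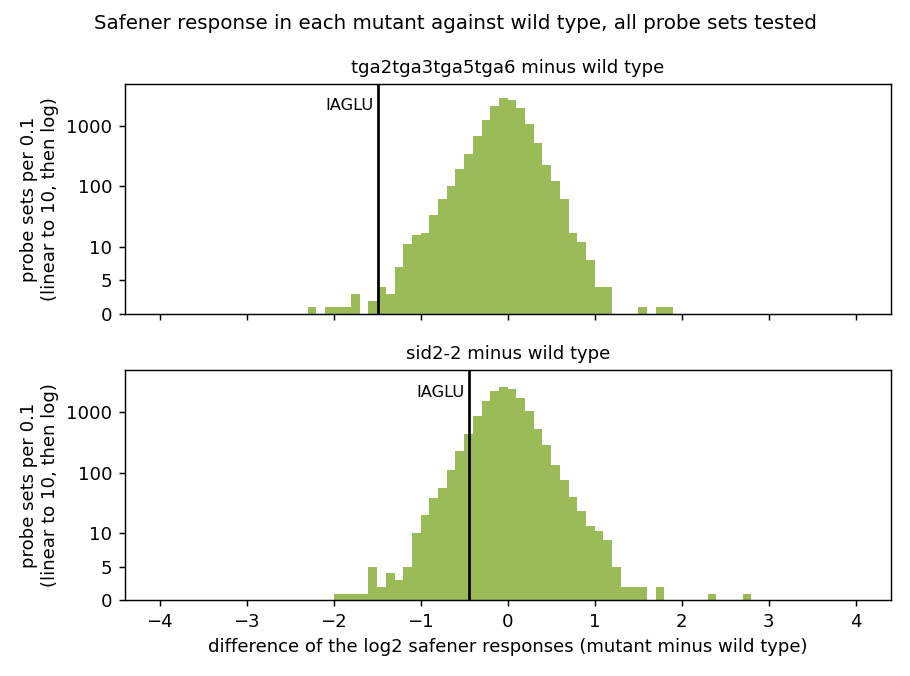
Number of probe sets (linear up to 10, then log) by the difference of the log2 safener responses, tga2tga3tga5tga6 minus wild type above and sid2-2 minus wild type below, with a vertical line at IAGLU. IAGLU lies in the sparse lower tail for tga2tga3tga5tga6, at -1.49, and nearer the bulk for sid2-2, at -0.45.

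From high to low, the group means ran safener treated sid2-2, safener treated wild type, mock treated sid2-2, mock treated wild type, safener treated tga2tga3tga5tga6 and mock treated tga2tga3tga5tga6. Of the 15 pairs of groups, 13 did not overlap. These pairs share groups, and IAGLU was chosen by these same levels, so the count is a description only. In the non-overlapping pairs that shared genotype or spray, 8.3% to 26.9% of probe sets tested lay apart in the same direction as IAGLU. For pairs that differed in both genotype and spray this share was not computed. The overlapping pairs were neighbours in this order, the safener treated sid2-2 and wild type leaves and the pair of safener treated tga2tga3tga5tga6 and mock treated wild type. In the last pair the highest tga2tga3tga5tga6 array was at 98.6 and the lowest wild type array at 86.3, with a log2 difference of -0.20 (SE 0.17).

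Wild type safener replicate 1 had the lowest IAGLU intensity of its group, 368, against 612 and 624 on the other arrays. Without it the wild type response was log2 2.71 in place of 2.46. The response difference of tga2tga3tga5tga6 against wild type was then -1.74 in place of -1.49, and that of sid2-2 against wild type was -0.70 in place of -0.45. The difference of safener treated sid2-2 from safener treated wild type was 0.058 in place of 0.31, and that of safener treated tga2tga3tga5tga6 from safener treated wild type was -2.91 in place of -2.66. None of these log2 differences changed direction.

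Among the genes with a UGT symbol, IAGLU had a larger log2 safener response than all 28 others tested in wild type and all 31 others tested in sid2-2. Genes of the family without such a symbol, such as AT2G31790 of the group L list, were not in this comparison. In the annotation 8730 of 22746 probe sets had no entry, so the ranking covers only part of the family. The next highest in wild type was UGT73B5, a group D glucosyltransferase known from stress responses (log2 1.92), and the median of the others was 0.05. In sid2-2 the next was UGT76B1 (log2 1.65), which glucosylates isoleucic acid and salicylic acid, and the median was 0.16. In tga2tga3tga5tga6, 1 of 30 others was above IAGLU, UGT73B5 at log2 1.34. For the response difference between tga2tga3tga5tga6 and wild type, IAGLU was below all 27 others tested, of which UGT73D1 was lowest (log2 -1.41) and whose median was 0.02.

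UGT73B5 and UGT76B1 both rose with safener in sid2-2 and wild type, but differed from each other between genotypes. They were named for their rank in these same responses, so their rise is a description only and is given without a p-value. UGT73B5 had 649, 678 and 674 in safener treated and 224, 218 and 268 in mock treated sid2-2, 117, 89.1 and 107 against 38.7, 38.0 and 46.5 in tga2tga3tga5tga6, and 286, 485 and 387 against 94.7, 111 and 93.8 in wild type. Like IAGLU, it was higher in mock treated sid2-2 (log2 1.24) and lower in mock treated tga2tga3tga5tga6 (log2 -1.28) than in mock treated wild type. UGT73B5 is also among the genes most correlated with IAGLU over all arrays, given below, so this likeness is a description too. Its response difference between tga2tga3tga5tga6 and wild type was -0.58 (SE 0.22) and did not pass the test (adjusted p = 0.476). UGT76B1 went the other way from IAGLU in sid2-2, where mock leaves were lower than mock treated wild type (log2 -2.85, SE 0.20, adjusted p = 1.83e-08). In mock treated tga2tga3tga5tga6 it was lower by a similar log2 difference (-2.83, SE 0.20, adjusted p = 2.6e-08).

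The lists of other auxin genes covered group L UGTs, GH3 enzymes, auxin oxidation and hydrolysis, auxin synthesis, receptors and response factors, Aux/IAA repressors, and auxin transport. Of 132 genes written, 28 were named in the annotation, 19 had a value on at least 1 array and 10 to 12 could be tested in a given comparison. Receptors and response factors, transport and SAUR genes had 0 annotated members. In wild type 10 were tested with safener against mock, of which 4 rose (14.7% of all probe sets tested) and 2 fell (16.9%), with a median log2 of 0.19 against -0.06 for all probe sets. In sid2-2 3 of 10 rose (12.8% of all) and 1 fell (19.2%), with a median of 0.18 against -0.09. In tga2tga3tga5tga6 0 of 11 rose (8.59% of all) and 1 fell (9.74%), with a median of -0.10 against -0.07, and 5 of these 11 had an unadjusted limma p under 0.05, as had 32.7% of all probe sets. No listed gene had a response as large as that of IAGLU in any of the 3 genotypes.

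UGT74D1, a group L enzyme that glucosylates IAA and other auxins, was also low in tga2tga3tga5tga6. Its intensities were 298, 395 and 509 with safener and 246, 236 and 204 with mock in sid2-2. They were 48.5, 58.6 and 52.9 with safener and 64.9, 66.5 and 84.3 with mock in tga2tga3tga5tga6, and 176, 315 and 262 with safener and 127, 164 and 167 with mock in wild type. All 6 tga2tga3tga5tga6 arrays lay below the arrays of the other genotypes. Against wild type alone, tga2tga3tga5tga6 lay wholly lower for 8.3% of all probe sets tested under mock and 13.2% under safener. The share for both sprays and both other genotypes together was not computed. UGT74D1 rose with safener in sid2-2 (log2 0.78, SE 0.20, adjusted p = 0.0062) and in wild type (log2 0.69, SE 0.20, adjusted p = 0.0131). In wild type the call was lost without mock replicate 1 (adjusted p = 0.0692) or without safener replicate 2 (adjusted p = 0.0667). In tga2tga3tga5tga6 the difference was -0.42 (adjusted p = 0.144).

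Against wild type, UGT74D1 was lower in tga2tga3tga5tga6 under mock (log2 -1.09, SE 0.20, adjusted p = 0.00172) and under safener (log2 -2.20, SE 0.20, adjusted p = 4.06e-07). Its response difference between tga2tga3tga5tga6 and wild type, -1.11 (SE 0.28), did not pass the test (adjusted p = 0.119), nor did that between sid2-2 and wild type, 0.09 (adjusted p = 0.931). In sid2-2 it was higher than in wild type under mock (log2 0.59, adjusted p = 0.0404) and under safener (log2 0.68, adjusted p = 0.0302). The mock call was lost in 8 of 14 alternative settings, among them leaving out any 1 of the 6 mock arrays (adjusted p = 0.0511 to 0.141). The safener call was lost in 6 of 14, among them without wild type safener replicate 1 (adjusted p = 0.169) or 3 (0.0516) and without sid2-2 safener replicate 2 (0.0812) or 3 (0.136).

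The remaining group L genes with values differed in direction. UGT84A3, which makes glucose esters of hydroxycinnamic acids, rose in wild type (415 ± 70.6 with safener, 273 ± 43.1 with mock, log2 0.60, adjusted p = 0.00281), and its differences in sid2-2 (0.24, adjusted p = 0.181) and tga2tga3tga5tga6 (0.10, adjusted p = 0.653) did not pass the test. Its 464 ± 28.02 in mock treated sid2-2 was above the 273 ± 43.1 of mock treated wild type (log2 0.78, adjusted p = 0.000655). UGT74B1, an enzyme of glucosinolate synthesis, had a log2 difference of 0.00 in wild type. AT2G31790, placed on the list from general knowledge and unnamed in the annotation, fell in wild type (log2 -0.79, adjusted p = 0.00227). UGT84A4 was not called in any safener response (87.0 ± 8.87 with safener and 96.8 ± 8.66 with mock in wild type). AT4G14090, also listed from general knowledge and unnamed in the annotation, had too few values with safener to test a response. Under mock it was called lower in sid2-2 (59.6 on 2 arrays) than in tga2tga3tga5tga6 (84.0 on 3 arrays), a call lost in 5 of 12 alternative settings. UGT74F1, UGT84A1, UGT84B1 and UGT84B2 had no value on any array.

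Among the other routes of IAA removal, AT1G14130, placed on the auxin oxidation list from general knowledge and unnamed in the annotation, had the same order of the 6 group means as UGT74D1. It had 394, 507 and 494 with safener and 239.8, 273 and 289 with mock in sid2-2. In tga2tga3tga5tga6 it had 129, 108 and 112 with safener and 128, 124 and 121 with mock, and in wild type 277, 414 and 315 with safener and 198, 207 and 177 with mock. It rose in sid2-2 (log2 0.80, SE 0.14, adjusted p = 0.000247) and wild type (log2 0.77, SE 0.14, adjusted p = 0.00034), with a difference of -0.10 in tga2tga3tga5tga6 (adjusted p = 0.643). It was lower in tga2tga3tga5tga6 than in wild type under mock (log2 -0.64, adjusted p = 0.0059) and safener (log2 -1.51, adjusted p = 3.98e-07). The response difference between tga2tga3tga5tga6 and wild type was -0.87 (SE 0.19, adjusted p = 0.0574).

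GH3.3, which joins amino acids to IAA, went the other way from IAGLU. It fell with safener in sid2-2 (62.7 ± 6.91 on the 2 arrays with a value, 138 ± 13.9 with mock, log2 -1.14, adjusted p = 0.00032). It fell in tga2tga3tga5tga6 (159.7 ± 25.7 with safener, 239 ± 60.7 with mock, log2 -0.57, adjusted p = 0.033), a call lost in 4 of 14 alternative settings, among them without mock replicate 1 (adjusted p = 0.15), safener replicate 1 (0.0731) or safener replicate 3 (0.156). It also fell in wild type (105 ± 22.1 with safener, 219 ± 26.6 with mock, log2 -1.07, adjusted p = 0.000213), where the adjusted p was 0.182 with blanks filled in. WES1, a GH3 enzyme also called GH3.5 that acts on IAA and salicylic acid, did not pass the test in any of the 3 responses (log2 -0.27 in sid2-2, -0.38 in tga2tga3tga5tga6 and -0.16 in wild type). IAA18, a repressor of auxin response, rose in sid2-2 (log2 0.45, adjusted p = 0.0135) and in wild type (log2 0.60, adjusted p = 0.00178), with 0.23 in tga2tga3tga5tga6 (adjusted p = 0.224). The sid2-2 call was lost without mock replicate 1 (adjusted p = 0.0777), safener replicate 1 (0.0559) or safener replicate 2 (0.0532), and on only the arrays of the comparison (0.0696). YUC2, a flavin monooxygenase of auxin synthesis, did not pass the test in wild type (log2 0.37, adjusted p = 0.0743).

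**Figure D3:**
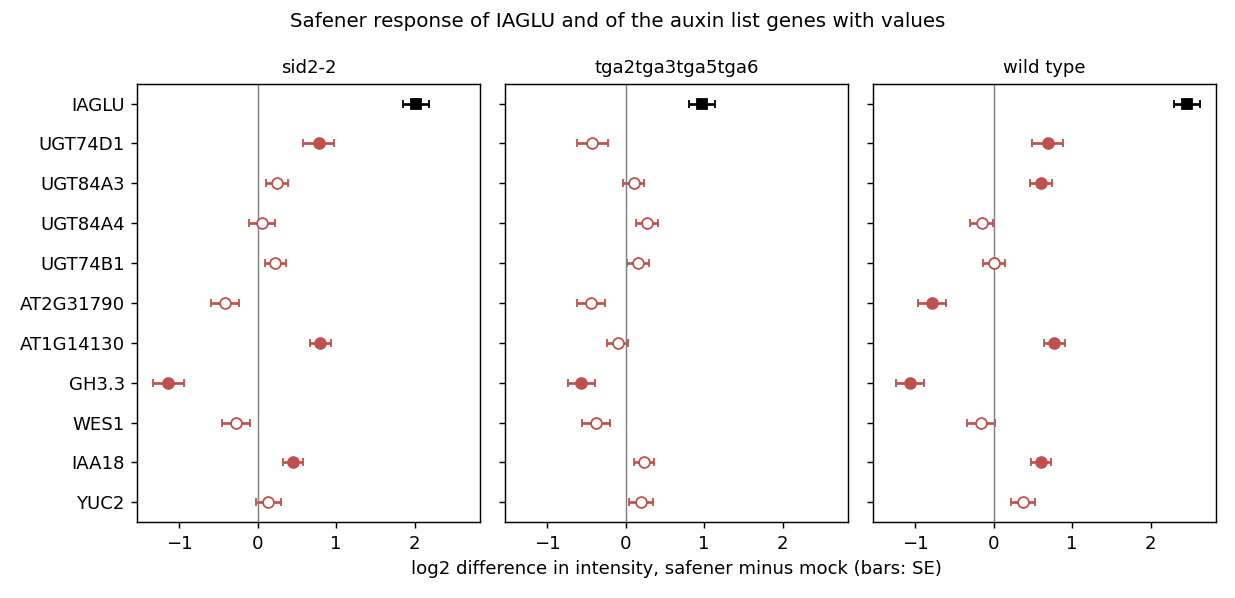
Log2 difference of intensity, safener minus mock, with SE bars for IAGLU (square, no test) and the 10 auxin list genes with values in all 3 panels (circles), filled where the limma adjusted p was under 0.05. IAGLU is furthest right in each panel, at 2.02 in sid2-2, 0.97 in tga2tga3tga5tga6 and 2.46 in wild type, and GH3.3 is furthest left in each.

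Between genotypes the list as a whole was mixed in direction. Under mock, 0 of 12 tested genes were higher (5.49% of all probe sets) and 2 lower (1.61%) in tga2tga3tga5tga6 than in wild type, while 3 of 10 were higher (16.7%) and 2 lower (5.21%) in sid2-2. The genes lower in sid2-2 were GH3.3 (log2 -0.66, adjusted p = 0.013) and UGT84A4 (log2 -0.52, adjusted p = 0.0167), which like UGT84A3 is known to act on hydroxycinnamic acids. The GH3.3 call was lost without wild type mock replicate 2 (adjusted p = 0.0676) and with blanks filled in (0.626). The UGT84A4 call was lost without wild type mock replicate 3 (0.0666) or sid2-2 mock replicate 1 (0.0656). It was also lost with blanks filled in (0.775) and with quantile normalization between arrays (0.0774). The genes higher in sid2-2 were UGT84A3, UGT74D1 and AT1G14130 (log2 0.46, adjusted p = 0.0216), the last not called without wild type mock replicate 3 (adjusted p = 0.0869) or sid2-2 mock replicate 2 (0.0582) or 3 (0.0801). Under safener, 3 of 10 were higher (8.37%) and 3 lower (3.96%) in tga2tga3tga5tga6 than in wild type, and 2 of 10 were higher (8.56%) and 1 lower (4.09%) in sid2-2. The genes lower in tga2tga3tga5tga6 were UGT74D1, AT1G14130 and UGT84A3 (log2 -0.70, adjusted p = 0.00209), and those higher were UGT74B1 (log2 0.51, adjusted p = 0.0184), AT2G31790 (log2 0.65, adjusted p = 0.0195) and GH3.3 (log2 0.61, adjusted p = 0.0302). The calls of these last 3 were all lost without wild type safener replicate 1 (adjusted p = 0.0902, 0.113 and 0.112) and without tga2tga3tga5tga6 safener replicate 1 (0.0538, 0.0606 and 0.0925) or 2 (0.0667, 0.0924 and 0.136). That of AT2G31790 was also lost without wild type safener replicate 3 (0.0622) and that of GH3.3 without wild type safener replicate 2 (0.0918). With blanks filled in, the calls of GH3.3 (0.604) and AT2G31790 (0.0566) were lost, and on only the arrays of the comparison that of UGT74B1 (0.0822). Between the mutants, sid2-2 had 3 of 11 genes higher (5.68%) and 3 lower (4.86%) than tga2tga3tga5tga6 under mock, and 4 of 10 higher (7.61%) and 2 lower (7.38%) under safener. UGT74D1 was higher in sid2-2 in both of these, by log2 1.68 under mock (adjusted p = 1.52e-05) and 2.88 under safener (adjusted p = 7.1e-09).

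For the differences of the safener response, limma called 0 of 10 listed genes between tga2tga3tga5tga6 and wild type, with 0.398% of all probe sets called, and 3 of the 10 had an unadjusted p under 0.05, as had 7.57% of all. It called 0 of 10 between sid2-2 and wild type, with 0.0413% of all probe sets called, and 0 of the 10 had an unadjusted p under 0.05, as had 8.98% of all. Between sid2-2 and tga2tga3tga5tga6 1 of 10 was called (0.662% of all probe sets), AT1G14130, with a larger response in sid2-2.

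Likeness to IAGLU was measured as Pearson's r of log2 intensity over the 18 arrays, for 13432 other probe sets listed on all arrays. The median r was -0.11, 76 probe sets reached 0.9 and 14 reached 0.95. Of those that belong to 1 gene, the most alike were AT4G02940 (r = 0.974), UGT73B5 (0.968), AT4G33420 (0.966), AT4G24160 (0.962), AT5G64250 (0.960), AT4G19010 (0.958), AT2G47890 (0.949) and AT1G76600 (0.948). The arrays fall into 6 groups that share treatment and genotype, so r mostly follows the group means. The same order of the 6 group means as in IAGLU was seen for 81 probe sets. Without wild type safener replicate 1 the r of these 8 genes was 0.946 to 0.976 over 17 arrays, and 7 of the 8 stayed among the 8 most alike.

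Genes of like shape differed in amplitude. AT4G33420 had 206, 229 and 223 with safener and 42.0, 41.7 and 76.1 with mock in sid2-2, 32.4, 36.0 and 27.7 against 17.0, 16.5 and 19.8 in tga2tga3tga5tga6, and 267, 207 and 309 against 26.3, 45.4 and 41.0 in wild type. Its response difference between tga2tga3tga5tga6 and wild type was -1.96 (SE 0.31), against -1.49 (SE 0.24) for IAGLU. AT4G02940 had a response of log2 1.15 in sid2-2, 0.51 in tga2tga3tga5tga6 and 1.22 in wild type (SE 0.13 each), smaller than that of IAGLU in each. AT4G19010 had the smallest responses of the 8 genes in sid2-2 (0.31) and wild type (0.50), with 0.24 in tga2tga3tga5tga6 (SE 0.09 each).

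**Figure D4:**
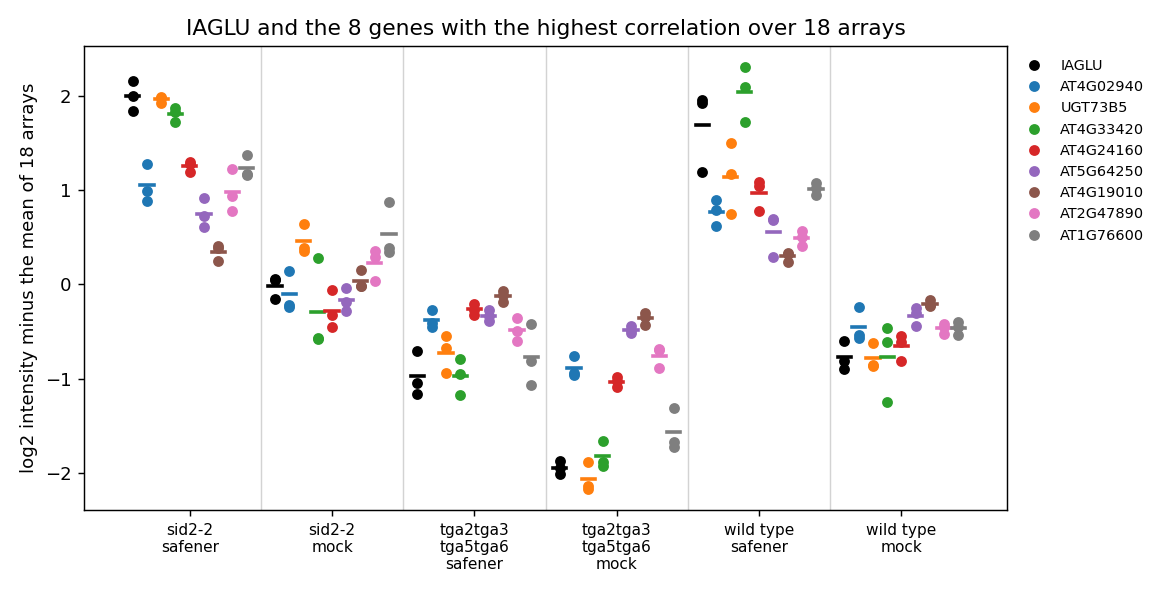
Log2 intensity minus the gene's mean over 18 arrays, for IAGLU (black) and the 8 genes of highest r with it, 3 arrays per gene and group, with a short line at the group mean. In all 8 genes safener treated sid2-2 and wild type are the highest groups and mock treated tga2tga3tga5tga6 the lowest, while safener treated tga2tga3tga5tga6 lies above mock treated wild type in 4 of the 8. The genes were chosen by r over these same arrays, so their shared highest and lowest groups largely follow from the choice.

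Within groups, the genes of highest r with IAGLU were others. By r of the deviations from the group means, the most alike were AT1G15280 (0.926), ICDH (0.901), AT2G30050 (0.897), AT1G45160 (0.897) and PKDM7D (0.895). Without wild type safener replicate 1 these fell to values between 0.724 and 0.855, and over the 18 arrays their r with IAGLU was only -0.435 to 0.390. None of the 5 was among the 8 genes named above. They were picked as the highest of many probe sets compared, and no reference for r of deviations was computed. That they vary with IAGLU beyond chance is therefore not shown.

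On the chromosome, IAGLU lies near other glucosyltransferase genes, with 7, 6 and 5 coding genes between it and UGT84A1, UGT84A3 and UGT84A4. Of the 5 coding genes on each side, 3 of 10 had a probe set in the annotation. PPDK, pyruvate orthophosphate dikinase, rose with safener in wild type (1120 ± 77.4 with safener, 773 ± 117 with mock, log2 0.54, SE 0.12, adjusted p = 0.00209). AT4G15545, the nearest coding gene on the lower side, fell in sid2-2 (1346 ± 170.4 with safener, 1698 ± 126 with mock, log2 -0.34, SE 0.12, adjusted p = 0.0343). AT4G15520 was not called in any of the 12 comparisons, and neither PPDK nor AT4G15545 was called in another. None of the 3 was called in a mutant against wild type, under mock or under safener. In those comparisons 1.61% to 16.7% of all probe sets tested were called in a given direction, and in the safener responses 8.59% to 19.2%. With 3 genes these counts cannot be told from such shares.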

How the data were processed

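Affymetrix ATH1 arrays measured transcripts in rosette leaves of 6 groups, 3 arrays each. The authors deposited 1 linear intensity per probe set and array; RMA, without a version, is named per the submitters' processing notes. The listed values of every array had a median of 200, and 31.5% of values were blank (27.9% to 35.7% per array). RMA usually gives log2 values for every probe set, so these values are not its usual output, and whether blanks are absent calls is not given in the sources used here. The deposited intensities were converted to log2 and blanks left missing. Of 22810 probe sets, 64 controls were left out. GEO's platform annotation gave 1 gene for 13513 probe sets, of which 13436 matched the RefSeq gene table, 503 had several and 8730 no entry.

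A model of 6 group means was fitted to all 18 arrays in limma 3.58.1 (R 4.3.3, lmFit and eBayes), for probe sets with at least 2 listed values in each group of a comparison. Calls have a Benjamini-Hochberg adjusted p under 0.05 over all probe sets tested, and all such p-values in the text are limma's. The step was tested on simulated data. The planned design had assumed log2 values without blanks. The number of arrays limits the precision. P-values measure the spread between biological samples as labelled.

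IAGLU, the gene lists and the alternatives were chosen with earlier results of these data known. Named genes are, per list, up to 4 called members per safener response and 3 per other comparison by adjusted p, all group L members, the 8 genes most correlated with IAGLU and 5 by deviations, and 5 coding genes each side. UGTs other than group L were named as the nearest in rank, after their values were seen. Promoter motifs and protein sequences were not analysed here. The labels do not say whether replicate numbers pair samples, and the main model did not pair them. In 0 of 9 pairs of groups did every same-numbered pair correlate over 0.1 (r = -0.37 to 0.46). With 3 arrays a group this check cannot exclude pairing. Alternatives were another scaling, only the arrays of a comparison, array weights, a replicate block, log2(value + 16), a low-value filter, filled blanks and leaving out each array. Likeness and the linear increase without wild type safener replicate 1 were added after seeing the data.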

Additional observations from a re-analysis of the deposited data

Results flagged for a closer look

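The safener response of AT1G14130 differed between the mutants. It was larger in sid2-2 than in tga2tga3tga5tga6 by 0.90 on the log2 scale (SE 0.19, limma adjusted p = 0.0324), tested as the difference of the responses. All 3 safener arrays of sid2-2 (394 to 507) lay above its mock arrays (239.8 to 289), as for 15.5% of all probe sets tested. The safener arrays of tga2tga3tga5tga6 (108 to 129) overlapped its mock arrays (121 to 128). The call was lost in 10 of 20 alternative settings, with an adjusted p of up to 0.113, and the direction was reversed in 0 of them.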

How the results depend on the processing

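IAGLU had 186 values under alternative settings, of which 178 moved by less than 1 SD, 8 moved by more and 0 changed sign. With log2(value + 16), which shrinks differences between low values, the mock difference was -0.93 for tga2tga3tga5tga6 against wild type and 1.60 for sid2-2 against tga2tga3tga5tga6. With array weights, whose fit gave a convergence warning, safener treated sid2-2 differed from wild type by 0.07. Leaving out 1 array at a time gave 2.33 to 2.71 for the wild type response, -2.91 to -2.53 for tga2tga3tga5tga6 against wild type with safener and 0.058 to 0.44 for sid2-2, and response differences of -1.74 to -1.36 and -0.70 to -0.31 for the same mutants. The end of each range further from the value reported came without wild type safener replicate 1. Of 110 list counts, 90 stayed within 1.5 times. For the tga2tga3tga5tga6 response 1 listed gene was called, with 3 on only the arrays of the comparison, 5 with array weights, 2 with the replicate block, 0 with filled blanks and 0 to 1 without single arrays. For the sid2-2 response 4 were called, and 2 to 5 without single arrays. Against mock treated wild type, the 2 calls in tga2tga3tga5tga6 were 6 with array weights, and the 5 in sid2-2 were 9 with array weights, 2 with filled blanks and 2 to 5 without single arrays. For the response difference of tga2tga3tga5tga6 and wild type, the 0 calls were 1 with arrays scaled to one median, 1 with log2(value + 16), 1 with a mean log2 of at least 6, 3 with array weights and 0 to 2 without single arrays. Of 52 calls of named list genes, 27 held under every alternative, 25 were lost under at least 1 and 0 reversed. Over all probe sets, array weights raised the calls by 1.51 to 31.7 times in 11 of 12 comparisons, for example to 7500 against 4636 in the wild type response and to 483 against 58 in the response difference of tga2tga3tga5tga6 and wild type. Using only the arrays of a comparison lowered them by 1.67 to 1.86 times in 3 of 12 comparisons, none of them a safener response. The response difference of sid2-2 and wild type had 6 calls, with 12 on arrays scaled to one median, 16 with log2(value + 16), 16 with a mean log2 of at least 6 and 42 with filled blanks. Leaving out 1 array moved such counts by over 1.5 times in 9 of 12 comparisons, for example to 1475 without mock replicate 2 against 2786 in the tga2tga3tga5tga6 response, and to 26 to 52 against 58 in the response difference of tga2tga3tga5tga6 and wild type. The lowest counts came to 614 (1067 reported) and 1844 (3287) for tga2tga3tga5tga6 and sid2-2 against wild type under mock, both without wild type mock replicate 2, 1119 (1833, without wild type safener replicate 1) and 1180 (1885, without sid2-2 safener replicate 2) under safener, 903 (1616) for sid2-2 against tga2tga3tga5tga6 under mock, without tga2tga3tga5tga6 mock replicate 1, and 50 (98) for their response difference, without tga2tga3tga5tga6 safener replicate 1. The response difference of sid2-2 and wild type had 4 to 15. The linear increase of IAGLU in sid2-2 was 111% of that in wild type and 93.0% without wild type safener replicate 1. The replicate block moved no such count by over 1.5 times (4602 in the wild type response), and 5 of 18 arrays correlated best with an array of their own number. The causes were not tested.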
